A study of Mus musculus with 11 samples.

Results

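Layer 6 corticothalamic-like neurons were taken from single-nucleus RNA sequencing of mouse cortex by the transcripts of each nucleus. A nucleus was a member if it held 300 to 8000 detected genes, at most 5% mitochondrial UMIs, at least 2 UMIs of Slc17a7, at most 1 UMI of Gad1 and Gad2 together, at least 5 UMIs of Hs3st4 and at least 3 UMIs of Foxp2. Hs3st4 also had to exceed each of Cux2, Rorb and Tshz2, and Vwc2l was allowed 1 UMI at most. A UMI is a molecular tag that marks 1 captured RNA molecule. These limits selected 3677 of the 114118 barcodes, which was 3.27% of the 112539 nuclei within the gene and mitochondrial limits and 18.0% of the 20466 excitatory nuclei, those that passed the Slc17a7 and Gad limits. The members were chosen on measured values, so their levels of these 9 genes are a description.

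Corticothalamic neurons of layer 6 are excitatory cells that send axons back to the thalamus and thereby adjust the sensory input that reaches the cortex. They also contact interneurons and other pyramidal cells in the layers above. Their identity during development depends on transcription factors such as Tbr1 and Sox5, and in the adult they are recognised by a set of transcripts that includes Foxp2, Tle4, Syt6 and the neurotensin receptor Ntsr1.

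The study asked how NF-κB signalling in microglia acts on the brain of mice with tau deposits, and it profiled 11 mice with 1 library each. The labels give them as female, while the methods name only male mice for RNA-seq, and Xist, the RNA of the inactive X chromosome in females, was at 717 to 1399 CPM (counts scaled to a common total) in the members of every mouse. Non-transgenic mice were Ikbkb+/+ (n = 4, 9.8 to 10.85 months old), and P301S mice were Ikbkb+/+ and carried the P301S transgene (n = 3, 9.15 to 10.75 months). This PS19 transgene is human tau with the P301S mutation under the mouse prion promoter. Knockout P301S mice were Ikbkb-/- in microglia and carried P301S (n = 2, 8.39 and 9.15 months), and active IKKβ P301S mice expressed the constitutively active IkbkbCA in the same cells and carried P301S (n = 2, 9.8 and 10.85 months). IKKβ is the kinase that switches on NF-κB. Both changes were made by an inducible Cre recombinase under Cx3cr1, a promoter of microglia and related myeloid cells, and mice with and without Cre were given tamoxifen for 10 days. The non-transgenic and P301S mice had no Cre and came from both breeding lines, the one with floxed Ikbkb (non-transgenic replicates 1 and 2, P301S replicates 1 and 2) and the one with the active IKKβ allele (non-transgenic replicates 3 and 4, P301S replicate 3). Both knockout mice were of the first line and both active IKKβ mice of the second.

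The members numbered 315, 456, 419 and 251 in the non-transgenic mice, 308, 226 and 286 in the P301S mice, 353 and 344 in the knockout P301S mice, and 353 and 366 in the active IKKβ P301S mice. They had a median of 12431 UMIs (quartiles 10117 and 15447) and 3605 genes per nucleus, close to the 12742 UMIs of the 16789 other excitatory nuclei. The medians of single mice ran from 9767 to 15574 UMIs. They were 9767, 10606 and 12141 in the P301S mice, below the 13768 and 15574 of the knockout and the 12687 and 13197 of the active IKKβ mice. Non-transgenic mice had 11217 to 12711. Since the gate uses raw UMIs, the knockout and active IKKβ contrasts were not matched for depth. Neither was P301S against non-transgenic mice, where P301S replicates 1 and 2 (9767 and 10606) lay below every non-transgenic mouse. The counts summed over the members of a mouse came to 2620927 to 6039609 UMIs. A simulated-doublet caller marked 374 of the members (10.2%), and 3 of their 3674 distinct barcodes occurred in more than 1 library. On the first principal component of the 11 summed libraries, which took 25% of the variance, mice of the floxed line lay between -11.2 and -3.16 and mice of the active IKKβ line between 4.98 and 13.1, so the breeding lines stood apart.

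Most members lay far inside the gate on Hs3st4, which encodes a heparan sulfate sulfotransferase. It had a median of 50 UMIs per member, with 26 at the 10th and 91 at the 90th percentile. In the other excitatory nuclei the median was 2 and the 90th percentile 26, so the ranges met. The Hs3st4 limit alone kept 10572 of the 20466 excitatory nuclei, and the Foxp2 limit then removed 6613 of these. Foxp2, a transcription factor best known for its role in vocal learning, had a median of 9 UMIs, and Slc17a7, the vesicular glutamate transporter, a median of 3. Each edge was counted among nuclei that met all other limits. At the edge of the Hs3st4 limit 2 members held exactly 5 UMIs and 3 nuclei were left out with 4. The limits on Foxp2 and Slc17a7 cut through denser ranges, with 262 members at 3 Foxp2 UMIs and 318 nuclei left out at 2, and 1497 members at 2 Slc17a7 UMIs and 1736 nuclei left out at 1. At the upper limits, 332 members held 1 UMI of Gad1 and Gad2 and 62 nuclei were left out with 2, and 231 members held 1 UMI of Vwc2l and 58 nuclei were left out with 2. The smallest allowed margin of Hs3st4 over Cux2, Rorb and Tshz2 was held by 1 member, and 4 nuclei with a tie were left out.

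The label was checked against 9 markers of layer 6 corticothalamic neurons that the gate did not use: Syt6, Tle4, Zfpm2, Sox5, Tbr1, Fezf2, Crym, Ntsr1 and Rprm. Levels are given as CPM, the count of a gene summed over the nuclei of a class in a mouse and scaled to the same total in every mouse. Together these markers reached a median of 2862 CPM over the 11 mice in the members (2676 to 3018), against 855 in the other excitatory nuclei. For comparison, 3 classes were gated among excitatory nuclei: upper-layer Cux2 nuclei (n = 4259, at least 3 Cux2 UMIs and Cux2 above Rorb, Hs3st4 and Tshz2), Rorb nuclei (n = 2841, gated likewise on Rorb) and near-projecting nuclei (n = 491, at least 5 Tshz2 and 2 Vwc2l UMIs), of which a mouse gave 17 to 78. The same markers summed to medians of 633, 549 and 1506 CPM in these classes.

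Syt6, a synaptotagmin, was at 165 ± 42.3 CPM in the members (SD, n = 11 mice), from 100 in the lowest mouse through a median of 166 to 243 in the highest, and at 2.24, 3.26 and 5.79 CPM in upper-layer, Rorb and near-projecting nuclei. No mouse of any comparison class came above 20.3 CPM, so the classes did not overlap. Zfpm2, a cofactor of GATA factors, was at 1378 ± 122 CPM against 107, 97.3 and 338, and Tle4, a co-repressor, at 399 ± 38.0 against 43.7, 55.3 and 209. These transcripts were found in most of the members, with at least 1 UMI of Zfpm2 in 98.5%, of Tle4 in 96.0% and of Syt6 in 74.4%. The scarcer Ntsr1 was found in 17% and Rprm in 5.98%, and levels of scarce transcripts in single nuclei cannot tell members apart at this depth.

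**Figure D1:**
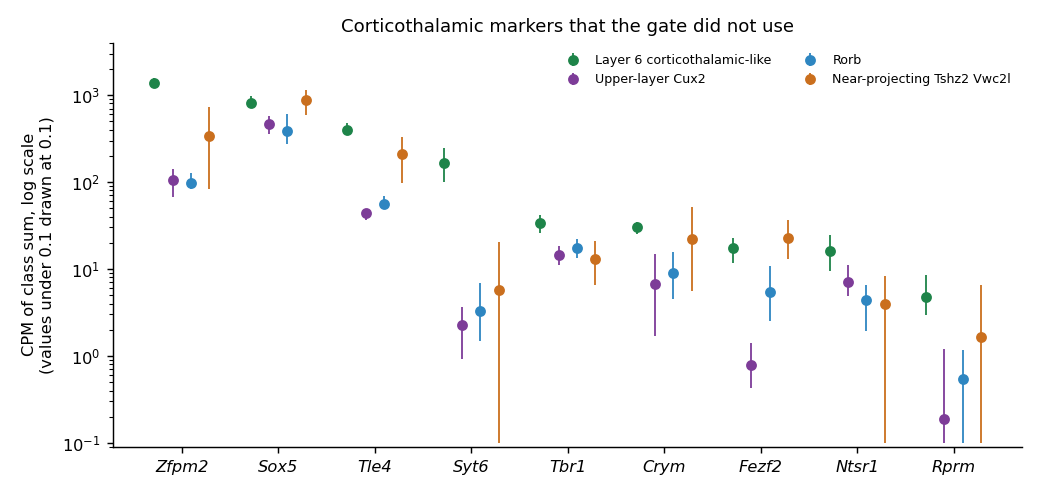
Levels of 9 corticothalamic markers that the gate did not use, in CPM on a log axis, in the members and in 3 comparison classes. Points are means over 11 mice and bars run from the lowest to the highest mouse, with values under 0.1 CPM drawn at 0.1. Syt6 and Zfpm2 were separated from every comparison class, while Sox5 and Fezf2 overlapped with near-projecting nuclei.

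Differences between classes were tested on counts summed per mouse, with the mouse as a block, by edgeR's quasi-likelihood test with Benjamini-Hochberg adjustment. A gene was called at an adjusted p under 0.05 and an absolute log2 fold change over 0.1, and the 9 genes of the gate were left out. Both classes of a contrast were gated on transcripts of the same nuclei, so genes that go with the gate genes had to differ. A call says only that a difference was large beside its own variation from mouse to mouse. Against upper-layer nuclei 6227 of 12072 genes were called (51.6%), of which 3098 were higher in the members (25.7% of those tested) and 3129 lower (25.9%). Against Rorb nuclei 5264 of 11418 were called (46.1%), with 2647 higher (23.2%) and 2617 lower (22.9%), and against near-projecting nuclei 2756 of 9639 (28.6%), with 1293 higher (13.4%) and 1463 lower (15.2%). Of the 9628 genes tested in every contrast, 809 were higher in the members than in all 3 classes and 874 lower, by over 2-fold in 124 and 234 of them.

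Of the 9 markers, 9 were called higher than in upper-layer and 9 than in Rorb nuclei, and 6 of the 8 tested against near-projecting nuclei. Sox5 (log2 fold change -0.07 ± 0.07 SE, adjusted p = 0.563) and Fezf2 (-0.31 ± 0.16, adjusted p = 0.184), both regulators of deep-layer fate, did not pass that last test. Syt6 differed by 6.11 ± 0.08, 5.63 ± 0.08 and 4.60 ± 0.21 on the log2 scale from upper-layer, Rorb and near-projecting nuclei. Ntsr1 differed by 1.19 ± 0.08, 1.87 ± 0.11 and 1.70 ± 0.23. These values carry adjusted p-values from 1.14e-22 to 2.22e-06 in edgeR's quasi-likelihood test.

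Markers of other cell types gave the background of these nuclei, and none of the listed genes was at 0 counts. The inhibitory markers other than Gad1 and Gad2 summed to a median of 129 CPM, most of it Adarb2 and Nxph1, while Pvalb (0.383 ± 0.181 CPM), Vip (0.549 ± 0.391) and Sst (1.25 ± 0.718) were near the floor. The astrocyte sum of 976 CPM was nearly all Slc1a2, a glutamate transporter found in 99.5% of the members at 923 ± 78.9 CPM, while Aqp4, Gja1 and Gfap stood at 1.2, 1.46 and 0.656 CPM. Striatal projection neuron markers summed to a median of 1357 CPM, most of it Pde10a at 1458 ± 377 CPM in the members and 1509 in the other excitatory nuclei. Rgs9 (42.0 ± 13.4 CPM against 16.9, 13.6 and 27.7) and Ppp1r1b (8.26 ± 2.20 against 4.29, 3.58 and 2.41) had higher means in the members than in the 3 classes, while Drd2 and Adora2a were at 1.54 and 1.13 CPM. Microglial markers summed to 41.6 CPM, oligodendrocyte markers to 160, and endothelial and mural markers to 5.78 and 1.88. Layer 2/3 markers summed to 238 CPM, against 1597 in upper-layer nuclei, and layer 4 markers to 134, against 575 in Rorb nuclei. Il1rapl2, at 112 ± 39.4 CPM in the members, made up most of the layer 4 sum. Bcl11b, a regulator that layer 5 and layer 6 neurons share, made up 277 ± 69.6 of the 312 CPM of layer 5 extratelencephalic markers.

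A small part of the members carried transcripts of layer 6b, the thin sheet of neurons under layer 6 that is marked by Nxph4, Ctgf (a secreted matrix protein), Cplx3 and Moxd1. In 92 of 3677 members (2.50%) these 4 genes together had at least 3 UMIs, against 1.76% of the other excitatory nuclei, 0.211% of upper-layer nuclei, 0.739% of Rorb nuclei and 0.204% of near-projecting nuclei. This share depends on depth and on the limit. With members thinned to 5000 UMIs it was 0 to 1.42% over the mice, and with limits of 2 and 5 UMIs it averaged 3.76 and 1.45% in the non-transgenic mice, against 2.53% at 3 UMIs. The 92 nuclei were deeper than the rest, with a median of 16472 against 12333 UMIs. As a description with no test, Syt6 was at 16.3 CPM in them and at 170 CPM in the other 3585 members, Crym, a thyroid hormone-binding protein, at 3.75 and 31.2, and Sox5 at 447 and 834. Tle4 was at 546 and 393 CPM and Ntsr1 at 24.4 and 15.9, so the corticothalamic markers did not all lie on the same side.

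The remaining variation among the members was spread over many small axes. Over 1000 variable genes, the first 3 principal components of the 3677 nuclei took 5.69%, 2.71% and 2.07% of the variance. The first ran from the adhesion genes Cdh13 and Cntnap4 and the RNA-binding factor Celf4 to the ephrin receptor Ephb1, its ligand family member Efna5, and Sox5. The second set Cacna2d3, Kcnip4, Unc5c and Unc5d against Zfpm2, Grm8, Sdk2, Nrp1 and Thsd7b, and was the most tied to depth (Pearson's r with log UMIs across nuclei of 0.388, a description, since nuclei share libraries). The third set Sema5a, Spon1 and Hcrtr2 against Meis2, Dab1 and Nfia. Several of these genes, Zfpm2, Sdk2, Nrp1, Thsd7b, Unc5d and Cacna2d3 among them, also differed between the members and other classes, as follows.

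By the smallest of their 3 differences, a choice made after the values were seen, the genes with the widest margins over all 3 classes were led by Syt6 and by Ror2, a Wnt5a receptor, at 18.6 ± 10.9 CPM against 0.701, 0.785 and 1.06. Its smallest log2 difference was 4.36 ± 0.40, from near-projecting nuclei. Thsd7b, a membrane protein with thrombospondin repeats, was at 927 ± 135 CPM in the members (740 in the lowest mouse, 949 in the median and 1090 in the highest), and no mouse of another class exceeded 138 CPM. It differed by 4.00 ± 0.13 from upper-layer, 3.78 ± 0.09 from Rorb and 4.13 ± 0.16 from near-projecting nuclei. Arhgap25, a GTPase-activating protein for Rac, was at 123 ± 27.9 CPM against 2.55, 13.3 and 5.95. The adaptors Sla and Shb, best known from receptor signalling, were at 27.6 ± 7.04 and 59.8 ± 15.1 CPM, with Sla 5.30 ± 0.19 above Rorb and 5.40 ± 0.32 above near-projecting nuclei on the log2 scale. Ighm, the heavy chain of immunoglobulin M, was at 49.7 ± 12.1 CPM against 1.11, 1.81 and 2.13. The non-coding Gm10635 varied widely between mice, from 29.6 to 237 CPM, and still differed from upper-layer nuclei by 6.43 ± 0.12.

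Genes with the largest differences on the lower side were named per contrast, and Pparg, Rasgrf2 and Boc among them were lower than in all 3 classes. Otof (otoferlin, -4.02 ± 0.08), the Ras exchange factor Rasgrf2 (-4.04 ± 0.06) and the nuclear receptor Pparg (-3.83 ± 0.06) were lower than in upper-layer nuclei. The Wnt agonist Rspo1 (-3.97 ± 0.14) and the Hedgehog co-receptor Boc (-3.76 ± 0.09) were lower than in Rorb nuclei. Against near-projecting nuclei Slc17a8, another vesicular glutamate transporter, stood at 0.164 ± 0.199 against 21.3 CPM (-6.44 ± 0.34), Lcp1, an actin-bundling protein, at 0.925 against 84.8 CPM (-6.30 ± 0.23), and Trhr, the receptor of thyrotropin-releasing hormone, at 1.75 against 35.5 CPM (-4.04 ± 0.29). Each of these passed edgeR's test with an adjusted p of at most 5.1e-11.

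The members were next described by gene families, with the genes singled out below the level of a family chosen after their values were seen. Of the AMPA, kainate and NMDA receptor genes, 8 were higher and 5 lower of 16 tested against upper-layer nuclei, 11 and 5 of 17 against Rorb nuclei, and 7 and 5 of 15 against near-projecting nuclei. The shares over all genes tested, given above, were 25.7% higher and 25.9% lower, 23.2% and 22.9%, and 13.4% and 15.2%, and they are the background of each family below. Of the kainate receptor subunits, Grik3 and Grik4 were called higher against every class, and Grik1 was called lower against Rorb (-2.11 ± 0.15) and near-projecting nuclei (-3.85 ± 0.14) and not called against upper-layer nuclei (-0.16 ± 0.14). Grik3 was at 706 ± 105 CPM in the members, from 548 through a median of 686 to 919, against 30.9, 178 and 392.3, and differed by 4.52 ± 0.07, 2.04 ± 0.07 and 0.98 ± 0.11. The near-projecting mice reached up to 746 CPM and overlapped with the members, while the other classes did not. Grik4 differed by 0.94 ± 0.05, 2.50 ± 0.09 and 1.41 ± 0.13. The AMPA subunits went apart, with Gria3 higher (0.18 ± 0.03, 1.0 ± 0.07, 1.01 ± 0.07) and Gria4 lower (-0.86 ± 0.03, -1.07 ± 0.04, -0.91 ± 0.06) than in all 3 classes. Of the metabotropic glutamate receptor genes, 3 were called higher and 4 lower of 7 against upper-layer, 2 and 3 of 7 against Rorb, and 2 and 3 of 6 against near-projecting nuclei, with Grm8 higher (1.80 ± 0.05, 1.85 ± 0.09, 0.21 ± 0.06) and Grm7 lower (-1.10 ± 0.03, -1.35 ± 0.03, -1.26 ± 0.05).

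Receptors for neuromodulators were called in both directions, 14 higher and 12 lower of 30 against upper-layer, 14 and 10 of 29 against Rorb, and 10 and 7 of 25 against near-projecting nuclei. Chrna5, the accessory subunit that shapes nicotinic responses to acetylcholine, was at 10.6 ± 3.19 CPM (4.84 in the lowest mouse, 11.8 in the median and 15.6 in the highest) against 0.180, 0.137 and 3.20 CPM. It differed by 5.59 ± 0.25, 6.02 ± 0.26 and 2.24 ± 0.33, and the near-projecting mice, with up to 10.5 CPM, overlapped. The partner subunit Chrna4 was higher than in upper-layer (2.79 ± 0.12) and Rorb nuclei (2.03 ± 0.18) and differed by 0.50 ± 0.20 from near-projecting nuclei (adjusted p = 0.0675 in edgeR's test). Htr1f, an inhibitory serotonin receptor, was at 571 ± 56.4 CPM against 67.3, 298 and 160. Oprm1, the mu opioid receptor, was higher by 1.38 ± 0.06, 1.45 ± 0.06 and 0.89 ± 0.16. Hcrtr2, a receptor of the arousal peptide orexin, was higher than in upper-layer (4.34 ± 0.15) and Rorb nuclei (2.81 ± 0.23) but not than in near-projecting nuclei (-0.15 ± 0.17, adjusted p = 0.569). The muscarinic receptor Chrm2, the stress-peptide receptor Crhr1 and the serotonin receptor Htr7 were lower than in all 3 classes, Crhr1 for example at 8.93 ± 1.48 CPM against 55.9, 82.5 and 33.4.

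**Figure D2:**
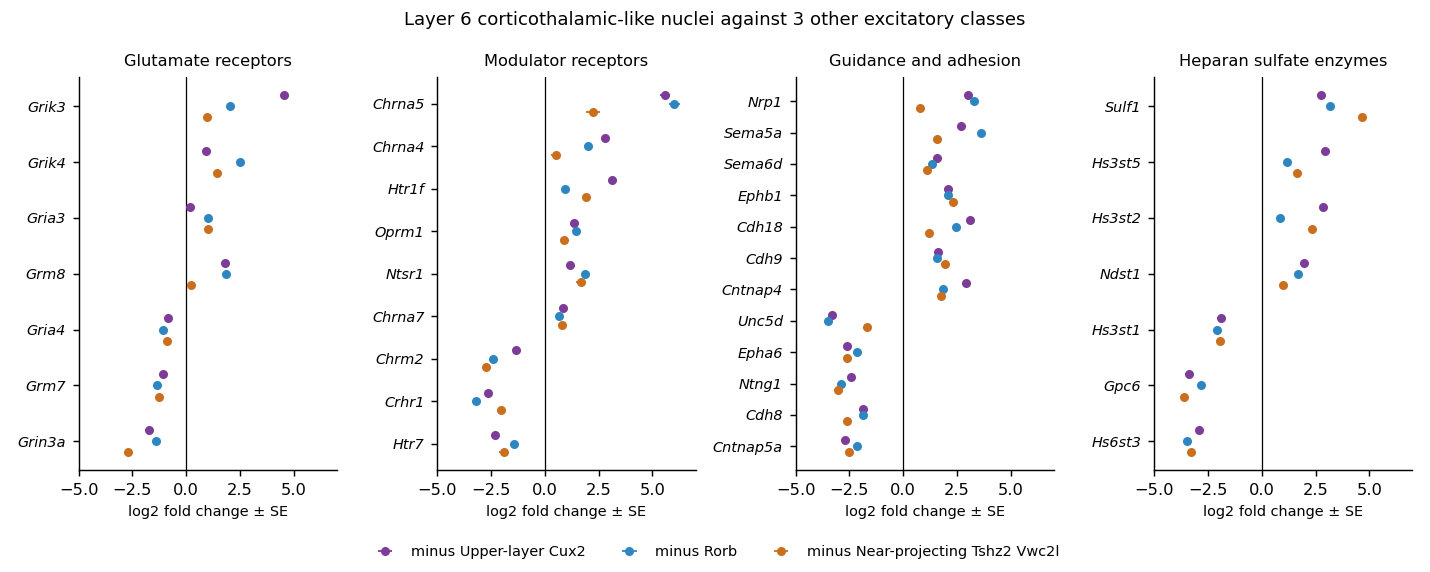
Log2 fold changes (members minus each comparison class) of genes from 4 families, with standard errors as bars: glutamate receptors, neuromodulator receptors, guidance and adhesion genes, and heparan sulfate enzymes. Each gene has 1 point per class, against upper-layer, Rorb and near-projecting nuclei, and each panel holds genes on both sides of 0. The plotted genes were chosen after their values were seen and run from Chrna5 at 6.02 to Gpc6 at -3.63, so lower values of genes not drawn, such as Grik1, lie outside the plot.

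Of the genes of axon guidance, 13 were called higher and 19 lower of 35 against upper-layer, 15 and 17 of 35 against Rorb, and 8 and 20 of 34 against near-projecting nuclei. Nrp1, the co-receptor of class 3 semaphorins, was at 373 ± 40.4 CPM against 45.5, 39.0 and 225. Sema5a (2.68 ± 0.14, 3.61 ± 0.11, 1.58 ± 0.15), Sema6d (1.58 ± 0.05, 1.32 ± 0.07, 1.11 ± 0.12) and the receptor Ephb1 (2.07 ± 0.06, 2.08 ± 0.07, 2.30 ± 0.13) were higher than in every class. The netrin receptor Unc5d went the other way, at 156 ± 21.5 CPM against 1541, 1765 and 524, with no overlap between the members (122 to 196) and any class. Epha6 (176 against 1069, 787 and 1080 CPM), Plxnd1 and the netrin-G gene Ntng1 (34.1 against 184, 260 and 291 CPM) were lower as well. Among cadherins, contactins and their relatives, 8, 9 and 9 were higher and 17, 17 and 16 lower of the 28 tested in each contrast. Cdh18 was at 2819 ± 273 CPM against 324, 530 and 1305, and Sdk2, a synaptic adhesion protein, at 584 ± 116 against 62.2, 66.6 and 95.3. Cdh8 and Cntnap5a were lower than in all 3 classes (-1.89, -1.89 and -2.61 for Cdh8, -2.68, -2.14 and -2.51 for Cntnap5a).

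Hs3st4 acts on heparan sulfate, the sulfated sugar chain of cell-surface proteoglycans, and other enzymes of this pathway also differed. Of those tested, 9 were higher and 13 lower of 26 against upper-layer, 10 and 12 of 26 against Rorb, and 6 and 12 of 24 against near-projecting nuclei. Sulf1, which removes 6-O sulfates outside the cell, was at 172 ± 29.0 CPM (129 in the lowest mouse, 171 in the median and 230 in the highest) against 25.9, 20.2 and 6.78, and no other class exceeded 38.7. Hs6st3, which adds 6-O sulfates, was at 266 ± 48.4 CPM (171, 265 and 342) against 2009, 2983 and 2736, and no other class fell under 1243. The log2 differences were 2.76 ± 0.07, 3.15 ± 0.13 and 4.65 ± 0.13 for Sulf1 and -2.92 ± 0.09, -3.48 ± 0.08 and -3.28 ± 0.12 for Hs6st3. Hs3st2 and Hs3st5, which make the same kind of modification as Hs3st4, were higher than in every class (Hs3st5 by 2.95 ± 0.07, 1.18 ± 0.08 and 1.66 ± 0.10), and Hs3st1 lower (-1.88 ± 0.10, -2.10 ± 0.12, -1.95 ± 0.19). Of the proteoglycan cores, Gpc6 was lower by -3.36 ± 0.07, -2.83 ± 0.08 and -3.63 ± 0.09.

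The transcription factors of cortical layers were called higher for 12 and lower for 7 of 21 against upper-layer, 11 and 8 of 20 against Rorb, and 7 and 7 of 19 against near-projecting nuclei. Nfia and Nfib, nuclear factor I genes of deep-layer neurons and glia, were higher than in every class, Nfia at 714 ± 52.0 CPM against 96.8, 169 and 90.3. Tbr1, which represses layer 5 fate, was higher by 1.21 ± 0.08, 0.95 ± 0.06 and 1.5 ± 0.16. Cux1 (116 ± 10.3 CPM against 655, 538 and 258), Lhx2, Rora and Mef2c were lower than in all 3 classes. Bcl11b did not pass the test against near-projecting nuclei (0.25 ± 0.11, adjusted p = 0.104).

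Of 24 potassium channel genes, 15 were called lower and 7 higher against upper-layer, 14 and 6 against Rorb, and 10 and 7 against near-projecting nuclei. Kcnb2 was at 267 ± 21.6 CPM against 1481, 1144 and 1074, and the channel-associated Kcnip4 and the M-current subunit Kcnq5 were also lower than in each class. Of 15 calcium channel genes, 8, 9 and 7 were called lower and 5, 4 and 4 higher in the same order. The auxiliary subunit Cacna2d3 was lower than in each class, at 244 ± 36.7 CPM against 1292, 1932 and 1411, and the channel subunit Cacna1d was higher (0.44 ± 0.03, 0.74 ± 0.04 and 0.60 ± 0.06). Genes of cholesterol synthesis and uptake were higher for 14 and lower for 0 of 18 against upper-layer nuclei (median log2 fold change 0.46, against 0.02 over all genes tested), and for 4 and 0 of 18 and 3 and 1 of 15 in the other contrasts. Sqle, an enzyme of that pathway, was higher than in upper-layer nuclei by 0.81 ± 0.10. Gabra2, a subunit of the GABA-A receptor, was at 96.5 ± 11.9 CPM against 360, 230 and 225. Mapt, which encodes tau, was at 494 ± 46.0 CPM, lower than in upper-layer (-0.31 ± 0.03) and Rorb nuclei (-0.22 ± 0.03) and not called against near-projecting nuclei (0.06 ± 0.05, adjusted p = 0.417).

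The genotype groups were then compared, first by the share of excitatory nuclei that were members. It was 17.7, 23.0, 17.4 and 15.3% in the non-transgenic mice, 17.3, 17.4 and 19.2% in the P301S mice, 18.4 and 18.8% in the knockout P301S mice, and 15.5 and 17.8% in the active IKKβ P301S mice. The non-transgenic values spanned those of all other groups. The means were 18.3 ± 3.30% in non-transgenic and 18.0 ± 1.07% in P301S mice, a difference of -0.388 percentage points (exact permutation p = 0.886, two-sided, where 35 splits allow 0.0286 at best). The 7 P301S-carrying mice together differed by -0.579 (p = 0.718, exact permutation), knockout from P301S mice by 0.619 (p = 0.5) and active IKKβ from P301S mice by -1.29 (p = 0.6), where 3 against 2 mice cannot go below 0.1. The knockout difference was 1.61 as a share of all nuclei within the limits, and the active IKKβ difference was -2.39 with nuclei thinned to 5000 UMIs. In both of these the groups did not overlap (exact permutation p = 0.1, the smallest possible). They did not overlap with the opposite sign either, for knockout mice after thinning (-0.748) and active IKKβ mice as a share of all nuclei (0.859). Both of the latter had an exact permutation p of 0.2, so the direction depended on the setting. Over the 4 contrasts each adjusted p of the permutation test was 0.886 in the main setting, and it was 0.229 for the 1.61 and 0.4 for the -2.39. The first 2 differences of the main setting turned positive, to 1.17 and 0.979, without non-transgenic replicate 2. The share of members with layer 6b transcripts was 0.797 to 4.06% in the non-transgenic and 1.37 to 4.55% in the P301S-carrying mice, with differences of 0.121 (P301S) and -0.0937 percentage points (all P301S-carrying; exact permutation p = 0.943 and 0.927).

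**Figure D3:**
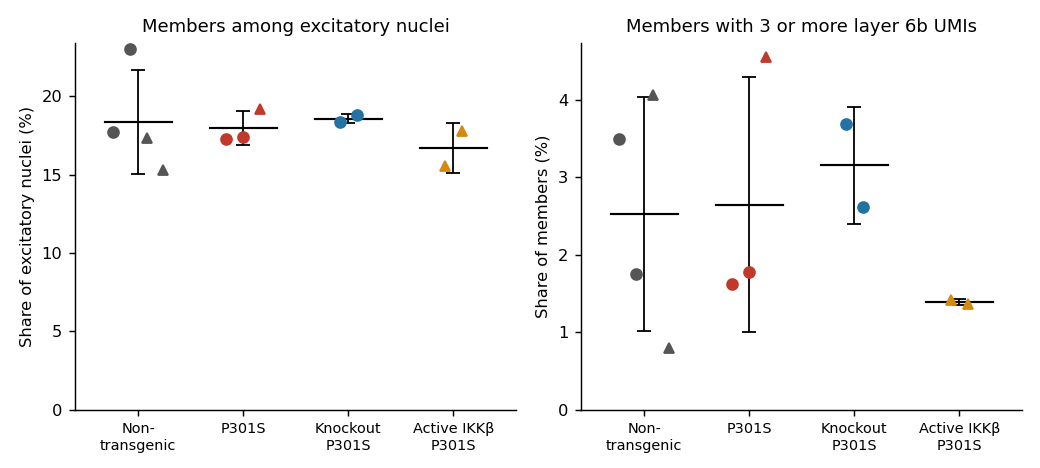
Members as a percentage of excitatory nuclei (left) and members with at least 3 layer 6b UMIs as a percentage of members (right), by genotype group. Each point is 1 mouse (circles for the floxed line, triangles for the active IKKβ line), with bars at the mean and error bars of 1 SD. The non-transgenic mice overlapped with the P301S-carrying mice in both shares, the knockout and active IKKβ P301S mice did not overlap with each other in either, and the non-transgenic mouse at 23.0% was the highest in the left panel.

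Expression in the members was compared on counts summed per mouse, over 12919 genes and with 1 term per genotype. A summed level cannot tell a change in each nucleus from a change in the share of nuclei that hold a transcript. Levels of genes in the genotype groups below are CPM after TMM scaling. Marker sums, levels of single markers and the levels of Npsr1 by class are CPM before that scaling. The biological coefficient of variation was 12.1%. P301S against non-transgenic mice gave 1 called gene (0.00774%), and all P301S-carrying against non-transgenic mice 2 (0.0155%), both of them higher in the carriers. At an unadjusted p under 0.05 there were 425 and 574 genes, and DESeq2 called 1 and 7. Called or not, the groups did not overlap for 567 genes (4.39%) in the first contrast and for 71 (0.55%) in the second. The first 2 contrasts share the non-transgenic mice and are not independent of each other. In the second, the knockout and active IKKβ carriers also had Cre and a changed IKKβ, and no non-transgenic mouse had either. That contrast therefore mixes the transgene with Cre and allele.

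Gm43049 (ENSMUSG00000105777), a long intergenic non-coding RNA on chromosome 3 (140692038 to 140760704 on the minus strand of GRCm38), was the gene called in both contrasts. Its level was 0, 0, 0.202 and 0 CPM for non-transgenic mice, with 9.04, 11.3 and 10.3 in the P301S mice, 8.10 and 5.96 in the knockout P301S mice and 7.48 and 8.02 in the active IKKβ P301S mice. The groups with and without the transgene were wholly apart. The non-transgenic total was 1 UMI, against 99 in P301S and 254 in all P301S-carrying mice. The ratios of the levels were 192 (95% exact counting interval 33.6 to 7652) and 156 (27.7 to 6167), and these intervals cover counting error only. The fitted log2 fold changes of 6.95 ± 0.48 (adjusted p = 6.64e-06) and 6.69 ± 0.44 (adjusted p = 3.67e-06 in edgeR's test) depend on the prior count of the fit. In the transgene carriers 8.78 to 11.9% of members had a UMI of it, and in the other mice 0 of 315, 0 of 456, 1 of 419 and 0 of 251, so that up to 1.2, 0.835, 1.34 and 1.51% remain possible at this depth (Wilson interval). These bounds are for nuclei with a UMI and not for nuclei that express the gene. It was also called in the other excitatory nuclei (7.75 ± 0.36 and 7.51 ± 0.34).

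Alpk1 (ENSMUSG00000028028), a kinase that senses a bacterial sugar and signals to NF-κB through Tifa, lies on chromosome 3 as well (127670310 to 127780527, minus strand). It was at 4.94, 8.62, 6.86 and 11.9 CPM in the non-transgenic mice, 15.4, 15.2 and 21.7 in the P301S mice, 19.3 and 20.5 in the knockout P301S mice, and 23.1 and 24.1 in the active IKKβ P301S mice. Every mouse with the transgene was above every mouse without it, and this held within both breeding lines: 4.94 and 8.62 against 15.2 to 20.5 CPM in the floxed line, and 6.86 and 11.9 against 21.7 to 24.1 CPM in the active IKKβ line. The log2 fold change was 1.32 ± 0.19 for all P301S-carrying mice, which was called (adjusted p = 0.0323), and 1.15 ± 0.23 for P301S mice, which was not (unadjusted p = 0.000175 in edgeR). Without the low-count filter it was called for P301S mice too (1.13, adjusted p = 4.03e-05). That fit called 37 genes for P301S mice against 1 with the filter, so this call is weak support, and the cause was not tested. The call for all carriers ended with age as a covariate (adjusted p = 0.120), with nuclei thinned to 5000 UMIs (0.0670) and in 9 of the 11 fits that left out a mouse, where the adjusted p was 0.0525 to 0.259. Over all alternatives the log2 fold change was 1.15 to 1.54. The call stood without non-transgenic replicate 4 (0.00425) and P301S replicate 2 (0.0451). In the other excitatory nuclei Alpk1 was called in both contrasts (0.93 ± 0.11 and 1.10 ± 0.09). Its partner Tifa, at 4.82 to 10.2 CPM in the 11 mice, was not called in the members (-0.26 ± 0.16, adjusted p = 0.989).

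Markers of other cells were set beside these 2 genes. Over the 9 microglial markers, all with counts, the members' summed level was 23.7 to 48.7 CPM in non-transgenic, 33.9 to 52.7 in P301S, 29.1 to 50.0 in knockout P301S and 46.0 to 63.2 in active IKKβ P301S mice. The defining markers Tmem119 and C1qa were at 0.242 ± 0.316 and 0.730 ± 0.726 CPM over the 11 mice. The 7 oligodendrocyte markers summed to 119 to 244, 145 to 198, 225 to 228 and 154 to 162 CPM in the same order. The striatal list was the one of 16 that did not overlap between P301S (1129 to 1207 CPM) and non-transgenic mice (1208 to 2050) before TMM scaling. This gap was narrow beside the TMM factors of the mice (0.963 to 1.04), and overlap after scaling was not examined. The striatal sum was at 1181 to 1659 and 1782 to 2174 CPM in knockout and active IKKβ P301S mice. The part of these cells' transcripts in the genotype differences was not tested.

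**Figure D4:**
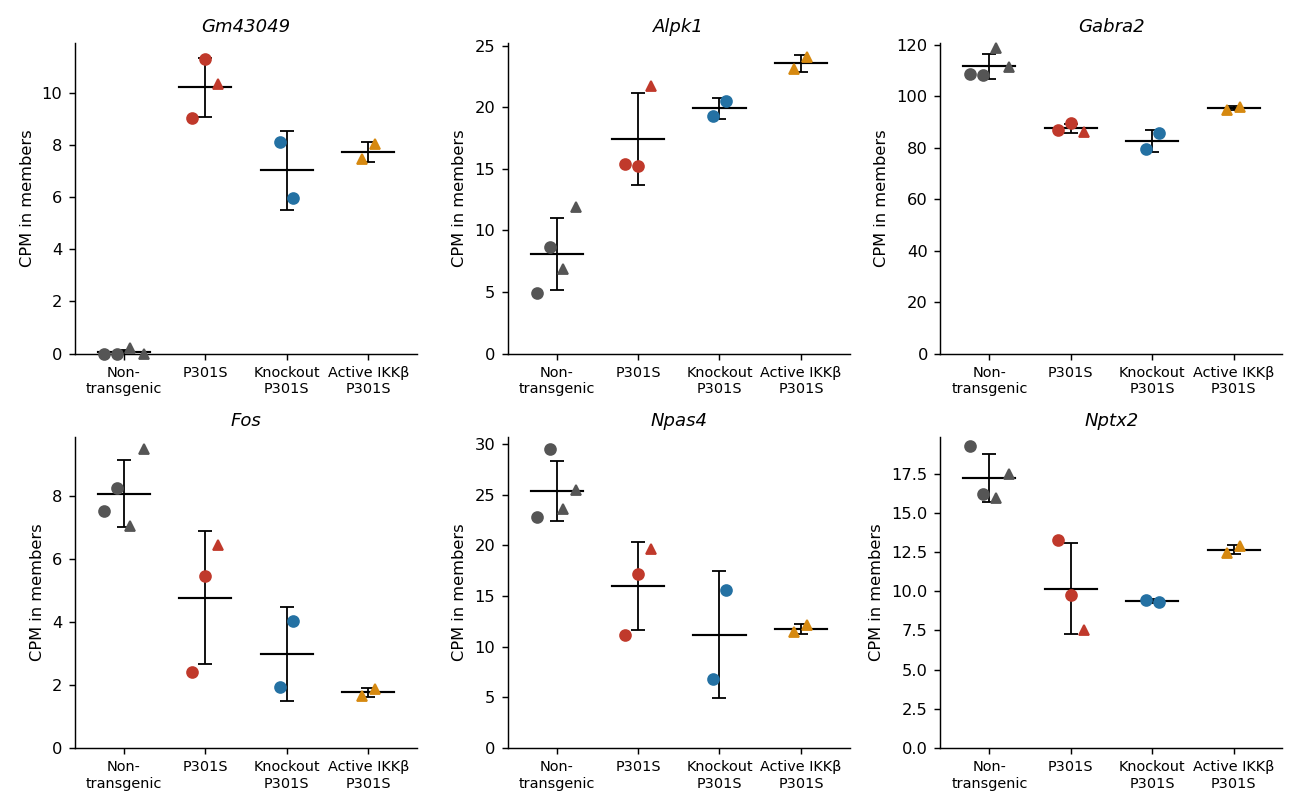
CPM after TMM scaling of Gm43049, Alpk1, Gabra2, Fos, Npas4 and Nptx2 in the members, with 1 point per mouse in the 4 genotype groups. Gm43049 and Alpk1 passed edgeR's test for all P301S-carrying mice, and the other 4 genes, lower in each P301S-carrying mouse than in each non-transgenic mouse, did not.

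No other gene passed, and the values of the next ones are given without a call. Fos, an immediate early transcription factor, was at 7.52, 8.28, 7.06 and 9.49 CPM in the non-transgenic mice, 2.41, 5.45 and 6.46 in the P301S mice, 1.93 and 4.03 in the knockout P301S mice and 1.66 and 1.87 in the active IKKβ P301S mice. Npas4, which neuronal activity induces within minutes, was at 22.8, 29.5, 23.6 and 25.5 CPM in the non-transgenic mice against 6.75 to 19.6 in the others. Nptx2, a secreted protein that gathers AMPA receptors, was at 19.3, 16.2, 15.9 and 17.5 against 7.50 to 13.3 CPM. None of these groups overlapped. The log2 fold changes over all P301S-carrying mice were -1.34 ± 0.25 for Fos (adjusted p = 0.200), -0.94 ± 0.18 for Npas4 and -0.70 ± 0.14 for Nptx2 (both adjusted p = 0.242, edgeR), and DESeq2 called Fos and Npas4. Gabra2 was at 109, 108, 119 and 111 CPM against 79.7 to 95.9 (-0.34 ± 0.06, adjusted p = 0.200). In the other excitatory nuclei the difference of Gabra2 was -0.41 ± 0.06 and was called (adjusted p = 0.0471). Fos (-0.91 ± 0.26), Npas4 (-0.73 ± 0.19) and Nptx2 (-0.28 ± 0.14) were negative and not called there, so lower values were not particular to the members. The complement gene C7 (-0.80 ± 0.15) and the dynein gene Dnah5 (-0.99 ± 0.18) had an adjusted p of 0.200 too, and DESeq2 called both. In the other excitatory nuclei they differed by -0.23 ± 0.20 and -0.53 ± 0.12 and were not called.

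The list of activity-induced genes, of which 29 of 30 were tested, held 0 called genes. At an unadjusted p under 0.05, 8 were lower (Fos, Dusp6, Junb, Npas4, Egr4, Gadd45b, Nptx2 and Egr1) and 1 was higher (Nptx1, 0.25) over all P301S-carrying mice, beside 271 lower and 303 higher of all 12919 genes. Of the 29, 25 were negative and 4 positive, with a median log2 fold change of -0.31 beside 0.00 over all genes tested. All carriers lay below all non-transgenic mice for 3 of the 29 (Fos, Npas4 and Nptx2), and over all genes for 32 of 12919 (0.248%). In P301S mice alone the median was -0.22, with 22 of 29 negative. These genes share the same mice, so their signs are not independent of each other.

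**Figure D5:**
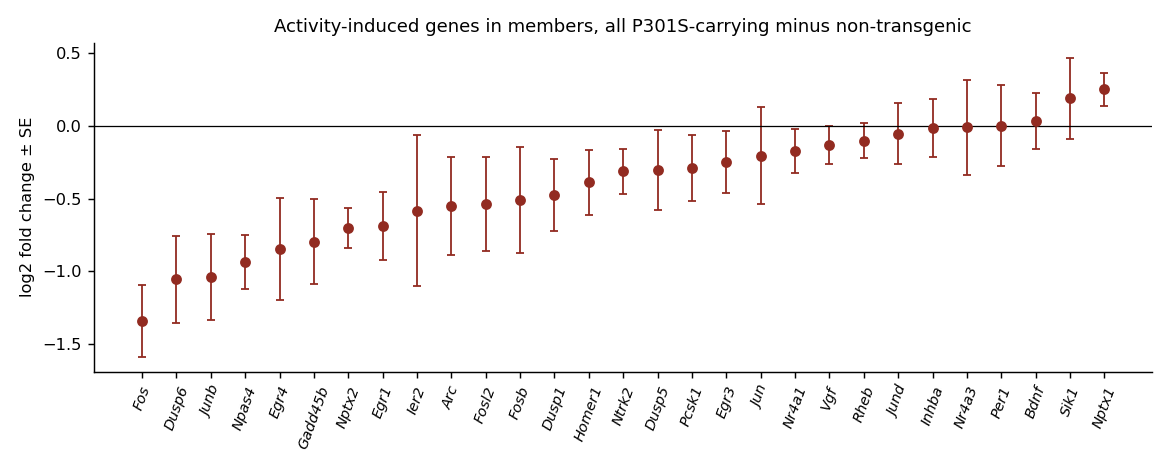
Log2 fold changes (all P301S-carrying minus non-transgenic mice) of 29 activity-induced genes in the members, with standard errors as bars. Most points lie below 0, from Fos at -1.34, and Nptx1 at 0.25 lies above it; 0 of them passed the adjusted test.

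Every other list of gene functions also held 0 called genes in both contrasts, and medians stayed between -0.10 and 0.13 for all P301S-carrying mice, as for neuropeptides (0.13, 6 tested) and GABA receptors (-0.10, 14 tested). An unadjusted p under 0.05 was reached by 271 of all 12919 genes on the lower side and by 303 on the higher side. On the lower side were 5 of 35 axon guidance genes and 2 of 31 genes for tau, its kinases and phosphatases. So were 1 of 21 heat shock genes and 1 of 26 heparan sulfate enzymes. None of 28 vesicle release genes (0) and of 27 respiratory chain genes (0) reached that level. These small counts were named from 22 lists, and their difference from the share over all genes was not tested. The 9 unused corticothalamic markers had a median of -0.02, beside 0.00 over all genes. Mouse Mapt ran from 426 to 557 CPM over the 11 mice (0.08 ± 0.07), and Ikbkb from 34.4 to 54.0 (0.06 ± 0.11). Reads of the human tau transgene were not counted apart from the mouse gene, and the prion gene Prnp, whose promoter drives it, was too low to be tested.

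Knockout against P301S mice addressed the loss of IKKβ in microglia. Both knockout mice carried Cre and were of the floxed line, and the P301S mice carried no Cre and 1 of the 3 was of the active IKKβ line. The knockout mice were 8.39 and 9.15 months old against 9.15 to 10.75 months. Their members had medians of 13768 and 15574 UMIs against 9767 to 12141. Allele, Cre, depth and, in part, line and age therefore cannot be told apart. No gene (0) was called (0%), with 807 at an unadjusted p under 0.05 and 1 called by DESeq2, while groups of 3 and 2 mice failed to overlap for 3125 genes (24.2%). Ikbkb itself was at 46.5 and 46.8 CPM in the knockout against 34.4, 49.1 and 54.0 in the P301S mice (0.02 ± 0.16). The gene that DESeq2 called, Sorbs2os, a transcript antisense to Sorbs2, was at 29.1 and 31.4 CPM against 68.7, 62.3 and 56.1, and at 43.3 to 62.0 in the non-transgenic mice (-1.04 ± 0.20, adjusted p = 0.725 in edgeR). How the counting treated strand is not given in the sources used here, and a part of Sorbs2 reads in this value was not tested. Of the 16 marker lists, 4 did not overlap between knockout and P301S members. These were oligodendrocyte (225 to 228 against 145 to 198 CPM) and OPC (7.91 to 14.2 against 6.10 to 7.80). Layer 5 extratelencephalic (mostly Bcl11b, 321 to 352 against 179 to 293) and layer 4 (mostly Il1rapl2, 113 to 134 against 143 to 177) were the others. The part of these lists in this contrast was not tested. The activity-induced genes had a median of -0.23 in this contrast, with 22 of 29 negative and 0 called.

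Both active IKKβ mice carried Cre and were of the active IKKβ line, as only 1 of the 3 P301S mice was. Allele, Cre and, in part, line cannot be told apart here either. Their members were also deeper, with medians of 12687 and 13197 against 9767 to 12141 UMIs, while their ages overlapped with those of the P301S mice. Active IKKβ against P301S mice gave 0 calls (0%) in edgeR, with 766 genes at an unadjusted p under 0.05, 8 calls by DESeq2 and 3034 genes without overlap (23.5%). Npsr1, the neuropeptide S receptor, was at 15.4 and 9.70 CPM against 2.11, 3.90 and 1.29, and at 1.38 to 2.35 in the non-transgenic mice (2.43 ± 0.37, adjusted p = 0.0617). Over the 11 mice it was at 92.4 CPM in near-projecting nuclei and at 4.13 in the members. With the nuclei thinned to 5000 UMIs its difference was 1.53. Itpr2, a calcium release channel of the endoplasmic reticulum, was at 14.3 and 15.9 CPM against 4.82, 3.90 and 6.98 (1.49 ± 0.24, adjusted p = 0.0904), at 6.55 to 9.20 in the non-transgenic mice and at 8.49 and 8.94 in the knockout mice. The P301S mice had the lowest levels and overlapped with the non-transgenic mice. The Itpr2 difference was 0.69 without the marked doublets. Apobec3, an antiviral cytidine deaminase, was listed at 0 in the 3 P301S mice and at 4.78 and 3.17 CPM with active IKKβ, and Cdrt4 at 0 and at 6.86 and 5.78 CPM. Apobec3 was at 0 to 0.807 CPM in the non-transgenic mice and at 0.579 and 0.876 in the knockout mice, and Cdrt4 at 0 to 0.890 and at 0.579 and 0.350. Only the active IKKβ mice held enough counts of these genes for the low-count filter. Both genes were thus in the tested set because they were high there, and their difference is a description. The microglial markers given above summed to 46.0 to 63.2 CPM in the active IKKβ mice and to 33.9 to 52.7 in the P301S mice, and these overlapped. Of the 16 marker lists of the members, 8 did not overlap between active IKKβ and P301S mice. Striatal markers (mostly Pde10a) were at 1782 to 2174 against 1129 to 1207 CPM, and OPC markers at 10.0 to 21.9 against 6.10 to 7.80. Thalamic markers were at 11.5 to 13.9 against 4.03 to 8.39, and layer 4 markers (mostly Il1rapl2) at 84.3 to 99.2 against 143 to 177. The others were the inhibitory list (142 to 184 against 112 to 137 CPM), layer 5 extratelencephalic (312 to 327 against 179 to 293), layer 2/3 (226 to 227 against 238 to 271) and layer 6b (8.97 to 9.13 against 9.89 to 26.1). Their part in the values of this contrast was not tested. The activity-induced genes had a median of -0.26 here, with 20 of 29 negative and 0 called. This contrast and the previous one share the P301S mice.

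The differences of P301S and of all P301S-carrying mice from non-transgenic mice were compared between the members and the other excitatory nuclei. This was tested by the interaction of class and genotype over 15188 genes, with the mouse as a block. No gene (0) was called for P301S mice (0%) or for all P301S-carrying mice (0%) by edgeR's test, and 698 and 754 reached an unadjusted p under 0.05. The lowest adjusted p, 0.131, was that of Cdh9, a cadherin, whose effect was 0.59 higher in the members on the log2 scale, a gene named after its value was seen. Cdh9 was itself higher in the members than in each comparison class (1.60 ± 0.10, 1.55 ± 0.14 and 1.93 ± 0.17). Alpk1 differed by 0.21 ± 0.17 between the classes (adjusted p = 0.977). In the other excitatory nuclei 5 and 7 of 16661 genes were called in the P301S and the all-carrier contrast, over 16789 nuclei, against 1 and 2 in the members, over 3677.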

How the data were processed

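Single nuclei from frozen mouse cortex of 11 mice were sequenced with the Chromium Single Cell 3' v3 kit. The deposited matrices hold raw UMI counts per gene and barcode, which the authors made with Cell Ranger 3.1.0 on mm10, counting unspliced transcripts as well. The submitters' processing notes also name Seurat 3.0. The files hold no cell annotation, so the classes were gated as given in the report, and the members and gene lists (16 of markers, 22 of functions) were chosen with earlier results of these data known. The sample titles end in a number, 1 or 2, given anew in each breeding line, which is not the replicate number used in the report. The labels do not say what this title number marks. Some mice of a line with the same title number share an age (10.85 and 9.8 months in the non-transgenic and active IKKβ P301S mice), and so do some mice with different title numbers.

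Counts of the members were summed per mouse (2620927 to 6039609 UMIs). Genes that passed filterByExpr were scaled by TMM and tested with edgeR 4.0.16 (glmQLFit, glmQLFTest, R 4.3.3) with Benjamini-Hochberg adjustment, over all 11 mice and with 1 term per genotype. Class contrasts and the class by genotype interaction took the mouse as a block. Shares were compared with two-sided exact permutation tests, and intervals of shares are Wilson intervals at 95% that cover counting error only. The study tested single nuclei with MAST and removed doublets with DoubletFinder, neither of which was run here. A caller with simulated doublets (0.8% per 1000 barcodes, 15 components, 20 neighbours) marked 9345 barcodes, which were kept and left out in an alternative. Gene coordinates came from the GRCm38 annotation. The p-values set a difference against the variation between mice. Where the mouse was a block, this is the variation of the class difference from mouse to mouse.

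The text names the 12 genes of largest difference in each class contrast at 20 CPM or more (some of them only), the markers, called genes of the genotype contrasts at 5 CPM or more, and up to 3 genes of lowest p in each function list. The genes with the widest margins over all 3 classes, genes that DESeq2 alone called, and single genes of function lists in class contrasts, were chosen after their values were seen. Alternatives were DESeq2 1.42.0 and its size factors, no low-count filter, doublets left out, nuclei thinned to 5000 UMIs, and a stricter gate (Hs3st4 of 8 and Foxp2 of 5 UMIs or more). Further ones were breeding line or age as a covariate, the title number as a block, no mouse term in class contrasts, and leaving out each mouse.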

Additional observations from a re-analysis of the deposited data

Results flagged for a closer look

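Of 56 groups of values tested for a sample far from the others, 3 stood out, and chance alone flags about 1 in 20. Gm43049 was at 0.202 CPM (1 UMI) in non-transgenic replicate 3 and at 0 in the other non-transgenic mice. Ikbkb was at 34.4 CPM in P301S replicate 1, below the 46.5 to 54.0 CPM of the other P301S-carrying mice. Tshz2, a gene of the gate, was at 66.4 CPM in the members of non-transgenic replicate 3 and at 18.3 to 23.7 CPM in the other non-transgenic mice.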

How the results depend on the processing

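Without the low-count filter, edgeR called 37 genes for P301S, 79 for all P301S-carrying, 47 for knockout and 176 for active IKKβ mice, and 36 and 68 in the interactions for P301S and all P301S-carrying mice. DESeq2 called 7 genes for all P301S-carrying, 1 for knockout and 8 for active IKKβ mice. Leaving out marked doublets gave 1 call for active IKKβ mice and 1 in the interaction for all carriers. Thinning nuclei to 5000 UMIs gave 1 call for all carriers, 2 in their interaction and 1708 against near-projecting nuclei (2756 without thinning), and age as a covariate left 1 call for all carriers. Leaving out each mouse gave 1 to 1 call for P301S and 1 to 3 for all carriers (1 without non-transgenic replicate 1, 2 or 3, P301S replicate 1 or 3, or either mouse of the other groups). It gave 0 to 0 calls for knockout and for active IKKβ mice, and 0 to 2 and 0 to 3 in the interactions for P301S and all carriers, the highest without non-transgenic replicate 4. The block on the title number gave 1, 2, 0 and 0 calls. Over both breeding lines, mice of different groups with the same title number did not deviate together on average (mean correlation 0.00815, from -0.130 to 0.177). These pairs mix the lines, so the mean cannot show whether same-numbered mice of a line share more than a number.

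The difference in the share of members turned sign for P301S mice after thinning (0.392 percentage points), for knockout mice after thinning (-0.748) and without doublets (-0.385), and for active IKKβ mice as a share of all nuclei (0.859). It was -1.33 for P301S and 1.61 for knockout mice as a share of all nuclei, -2.39 for active IKKβ mice after thinning, and -0.935, -0.980 and 1.43 for P301S, all-carrier and knockout mice with the stricter gate. Leaving out each mouse, it ran from -1.41 to 1.17 for P301S, -1.60 to 0.979 for all carriers, 0.268 to 1.24 for knockout and -2.41 to -0.157 for active IKKβ mice. The layer 6b share of all carriers differed by 0.0476 with 5 or more UMIs and 0.175 after thinning, and by -0.670 to 0.417 when mice were left out, and that of P301S mice by -0.828 to 0.633. The causes were not tested. Groups of 2 mice and under 100 nuclei per mouse in the near-projecting class limit what these contrasts can show.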
